A study of Bos taurus with 40 samples.

Results

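A set of 64 cDNA probes, chosen for signal that varied together among bovine conceptuses once group means were removed, was described across 40 nylon arrays. The shared variation did not extend to all members within every group, as given below for SCNT High. The set was built around 4 seed probes, which stood for PGAM5 (probe CN433942), BIN3 (CN434085), MSH3 (CR552847) and C5orf13 (CN432421). The other 60 members were the probes with the highest Pearson correlation, over the 40 arrays, with the mean of the 4 seeds. For this ranking each log2 signal was centred on its array mean, and the mean of each group was then subtracted from each probe, so that members were chosen on variation within groups only. The array carried 10184 such cDNA probes. The seeds were taken up with their difference between the SCNT High and SCNT Low groups already known, so that this difference is a description below and not a test.

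The arrays measured extra-embryonic tissue, the trophoblast with its underlying endoderm and forming mesoderm that will contribute to the placenta, at Day 18 of gestation, before implantation. The control group, IVP, held 10 conceptuses from oocytes matured and fertilised in vitro with sperm of a single bull. The SCNT groups (somatic cell nuclear transfer, in which the nucleus of a body cell replaces that of an oocyte) each held 10 conceptuses made from 1 line of ear skin fibroblasts of 1 Holstein female, namely line 5538 (SCNT High), line 7711 (SCNT Med) or line 0029 (SCNT Low), High, Med and Low being the order of their success to term. All embryos were grown in vitro to the blastocyst and transferred several to a recipient cow. Each SCNT group thus stood for 1 donor line and could not be told apart from it, and which conceptuses shared a recipient was not given in the labels, so that the p-values below measure the spread between conceptuses. The elongation class of each conceptus was not given in the labels and was not used here. The paper states that all SCNT conceptuses were female, counts only part of the IVP group as female, and reports no sex effect. Sex was not used here either. In bulk tissue, fewer cells of a type and less RNA per cell cannot be told apart.

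The 4 named genes have unlike textbook functions. PGAM5 is a phosphatase of the mitochondrion that acts on serine and threonine residues, and MSH3 is a subunit of the mismatch repair machinery of DNA. BIN3 belongs to the BAR domain proteins, which bind curved membranes, and C5orf13, whose current RefSeq symbol is NREP, encodes a small neuronal regeneration related protein.

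The 4 seed names came from the study's list of QPCR primers, which pairs each probe with the gene amplified. The primers are the only sequences that tie these probes to their genes in the sources used here, and they are shown for that reason, 5′ to 3′, with no part in capitals. All 4 symbols were found in RefSeq (ARS-UCD2.0), C5orf13 as a synonym of NREP. The primers run as follows.
PGAM5 forward: tctcccctaccccttgttgg
PGAM5 reverse: aagcccctggtcagacttcc
BIN3 forward: cagaaacccgcagacaggtaa
BIN3 reverse: atgtggtcccaactgtgcag
MSH3 forward: atgatggaatcgccattgct
MSH3 reverse: attccccacctgctgtgagta
C5orf13 forward: tcagcattgtaggttgagcga
C5orf13 reverse: ggcgaggctactgaaaggaag
The primers were 20 or 21 bases long. The other 60 members carry no gene name in the sources used here and are given by their probe accession.

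The arrays were sorted here into 3 quantification sessions by the dates in their headers, with adjoining dates taken as 1 session. IVP and SCNT Med each had 7 arrays in session 1 and 3 in session 2. SCNT High had 3, 3 and 4 arrays in sessions 1, 2 and 3, and SCNT Low had 3, 5 and 2. The median signal per array ran from 22.9 to 162 and the median ratio of signal to local background from 4.85 to 8.99. Spots marked as poor occurred in session 3 only, at 2067 to 2847 per array, and took in 18 to 38 of the 64 members on those arrays. Of the 12 seed spots so marked, 10 were on SCNT High arrays. The trophoblast and endoderm lists could be checked by 3 probes only, PLIN2, FN1 and APLP2, the others having no probe tied to them here. PLIN2 lay below the array mean on most arrays and FN1 above it on most.

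The 4 seeds were bright and variable probes. Levels are given as the log2 signal minus the array mean, so that 0 is the average of all probes on an array. PGAM5 ran from 1.04 through a median of 2.62 to 4.09 in IVP, and from 2.57 through 3.10 to 3.77 in SCNT High. In SCNT Med it ran from 0.45 through 2.81 to 5.49, and in SCNT Low from 0.41 through 1.57 to 2.70. The phosphatase probe was thus held within a narrow band in SCNT High (SD 0.43) and was spread widest in SCNT Med (SD 1.67), with IVP (SD 1.15) and SCNT Low (SD 0.67) between them.

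BIN3 showed the least spread of the 4. The probe of this BAR domain protein ran from 1.81 through 2.98 to 3.77 in IVP and from 2.67 through 3.37 to 3.69 in SCNT High. It ran from 1.91 through 3.07 to 5.06 in SCNT Med and from 1.76 through 2.25 to 2.93 in SCNT Low. Its SD was 1.04 in SCNT Med and 0.73 in IVP, but 0.36 in SCNT High and 0.34 in SCNT Low (n = 10 each). All 4 groups overlapped.

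MSH3 was the seed that departed most from the others. The mismatch repair probe ran from 0.23 through 2.10 to 3.43 in IVP and from 1.61 through 2.46 to 3.80 in SCNT High. It ran from -0.15 through 3.17 to 6.01 in SCNT Med, the widest range of any seed in any group, and from -0.96 through 1.02 to 2.08 in SCNT Low. C5orf13 ran from 0.49 through 2.91 to 4.22 in IVP and from 2.27 through 3.37 to 4.26 in SCNT High. It ran from 0.70 through 3.32 to 5.54 in SCNT Med and from 0.28 through 2.12 to 2.98 in SCNT Low. The order of the group medians differed between seeds: SCNT High was highest for PGAM5, BIN3 and C5orf13 and SCNT Med for MSH3, while SCNT Low was lowest for all 4. Neighbours in this order lay apart by no more than about the SD within the wider of the 2 groups.

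**Figure D1:**
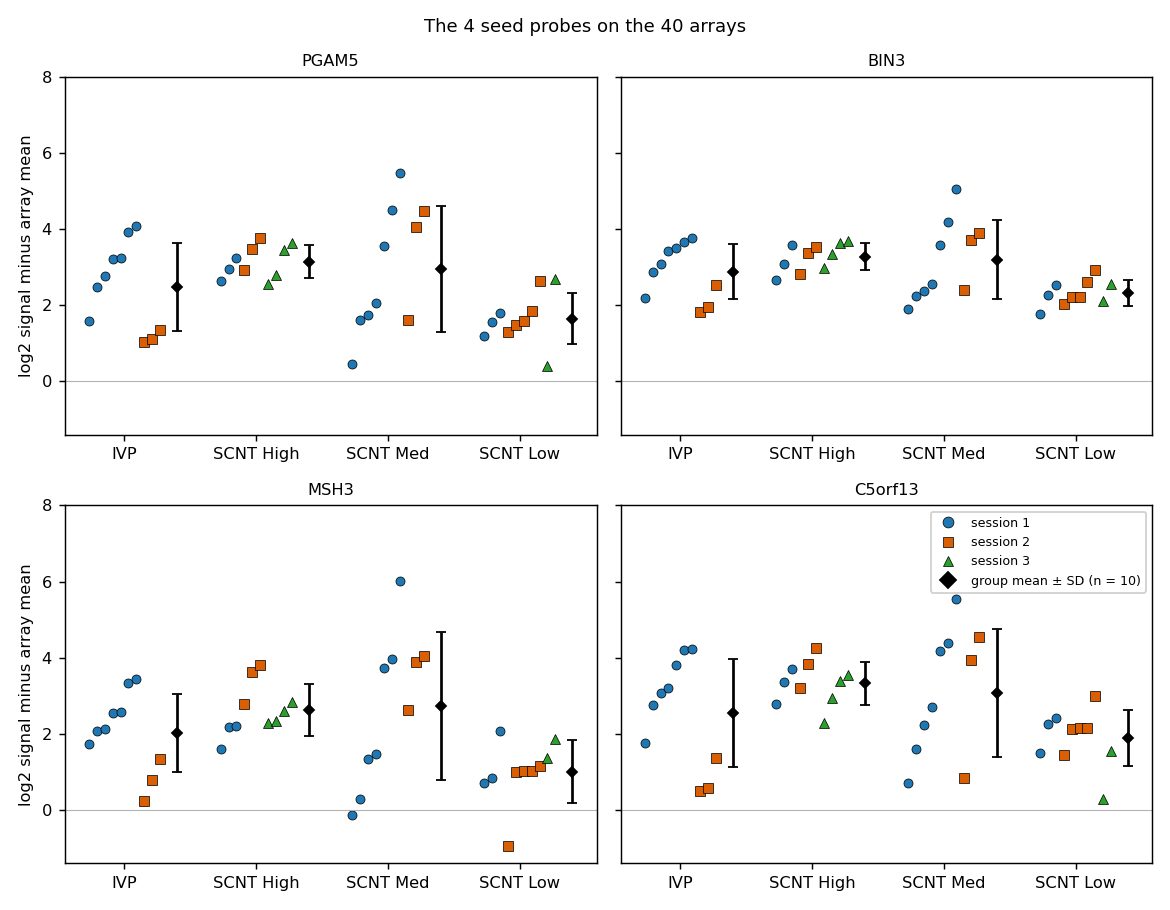
Level of PGAM5, BIN3, MSH3 and C5orf13 on each of the 40 arrays (vertical axis, log2 signal minus array mean), by group, with the quantification session as colour and shape, and the group mean ± SD (n = 10) as a black diamond. SCNT High stayed in a narrow band, the 3 session 2 arrays lay lowest in IVP for PGAM5, MSH3 and C5orf13, and SCNT Med held both the highest and some of the lowest values.

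Over the 40 arrays, once group means were removed, PGAM5 followed the mean of the other 3 seeds with r = 0.924, BIN3 with 0.876, C5orf13 with 0.836 and MSH3 with 0.662. The closest pair was PGAM5 and C5orf13 (r = 0.921) and the loosest was MSH3 and C5orf13 (r = 0.571). These values chose no probe but describe the axis that chose the others.

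The 60 other members had r between 0.619 and 0.924 with the seed mean, with a median of 0.701. The median over all other probes was -0.021, and 161 probes exceeded 0.5 while 91 fell below -0.5. The 8 closest were CR551763 (r = 0.924), CR553385 (0.913), CN434963 (0.902), CR551179 (0.899), CR553852 (0.895), CN433216 (0.868), CR553855 (0.862) and CN435027 (0.846). The limit of 60 cut through a continuous slope. The last probes inside were AW463252 (0.622), AW461916 (0.622) and BF041392 (0.619), and the first outside were AW461785 (0.619), AW465296 (0.617) and CN433691 (0.616). None of the other 12 genes of the primer list had its probe among the members. Their r ran from -0.239 for LHFPL2 to 0.300 for WNT5B, a secreted signalling protein, which ranked 648th among the other probes.

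The members shared features that the rule did not use. They were bright: 61 of the 64 lay above the median level of all probes, with a median level of 2.10 against -0.43. Their signal was 16.2 times the local background in the median, against 6.23 for all probes, and 57 of 64 (89.1%) outshone the water spots on all 40 arrays, against 55.2% of all probes. Their accession prefixes were uneven. CN or CR accessions made up 24 of the 60 chosen probes (40%), whereas CN, CR and CV together made up 22.1% of the array. AW accessions made up 50% of the 60 chosen probes against 31.7% of all probes, and BF accessions 10% against 35.9%. No member carried the BM prefix, which 951 probes had. The study's methods describe clones from term placenta beside clones from extra-embryonic and foetal libraries, and list the AW and BF clones in 1 plasmid vector and the CN, CR and CV clones in another. On the membrane the 64 members fell in 57 different blocks of 3 by 3 spots out of 1152, and 12 of them shared a block with another member. The number expected for probes placed at random was not computed, so nothing is read from this spacing.

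The members formed a pair of subsets along these prefixes, a split chosen after the values were seen. Among the 24 CN and CR members the median r between probes was 0.716 (276 pairs), and among the 36 AW and BF members it was 0.683 (630 pairs). Between the subsets it was 0.474 (864 pairs). Pairs above 0.9 numbered 8 within CN and CR, 35 within AW and BF and 0 between them. The closest pair was AW461668 and AW465987 (r = 0.979), named here for its value, as AW466071 and AW461876 are below. The mean of the CN and CR members followed the seed mean with r = 0.939 and the mean of the AW and BF members with r = 0.804, while the subsets followed each other with r = 0.650. These correlations come from the arrays that chose the members. The first principal component held 65.9% of the variance of the 64 probes and the second 12.8%.

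**Figure D2:**
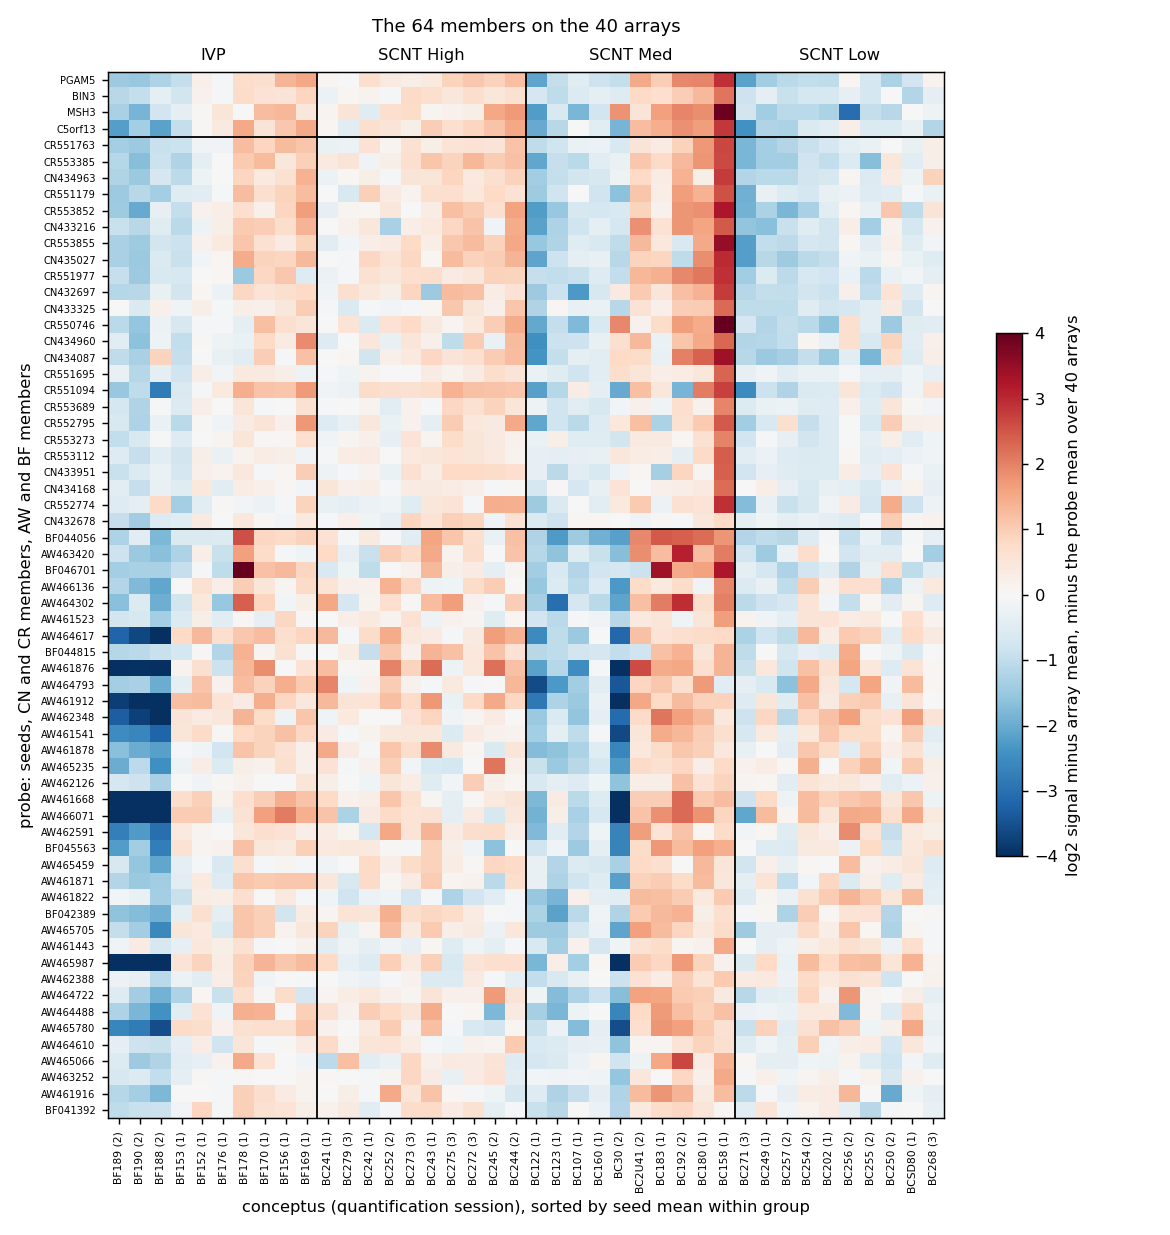
The 64 members (rows: seeds, then CN and CR, then AW and BF members, each ordered by r with the seed mean) on the 40 arrays (columns, conceptus with quantification session in brackets, sorted by the seed mean within each group). Colour is the level (log2 signal minus array mean) minus the probe's mean over 40 arrays, clipped at 4 and -4; the lower rows are darkest blue for the IVP arrays BF188, BF189 and BF190 and the SCNT Med array BC30, and the upper rows darkest red for BC158.

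The subsets were told apart by group. The mean of the 24 CN and CR members followed the seed mean within every group, with r = 0.964 in SCNT Med, 0.960 in IVP, 0.897 in SCNT High and 0.808 in SCNT Low (n = 10 arrays each). The mean of the 36 AW and BF members followed it in IVP (r = 0.891) and SCNT Med (0.833), less in SCNT Low (0.527), and not in SCNT High (0.054). In SCNT High, 19 of the 36 AW and BF members had an r above 0 with the seed mean and 17 below, against 23 above and 1 below among the 24 CN and CR members.

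Since those arrays had helped to choose the members, the choice was repeated with 1 group left out at a time. The 60 probes chosen on the other 30 arrays were then correlated with the seed mean on the 10 arrays that had no part in choosing them. For IVP the median r of the chosen probes was 0.772, with 60 of 60 above 0, where the median of all probes was -0.023 (48.2% of probes above 0). For SCNT Med it was 0.716, with 57 of 60 above 0, against -0.039 for all probes. For SCNT Low it was 0.418, with 55 of 60 above 0, against -0.013.

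For SCNT High the chosen probes had a median r of 0.135, with 36 of 60 above 0, against -0.036 for all probes. Within it, the CN and CR probes had a median of 0.727 while the AW and BF probes lay at -0.059. The split by prefix was made with all groups seen, so the medians by prefix describe it and do not test it. In the other groups left out, the CN and CR probes had medians of 0.822 in IVP, 0.827 in SCNT Med and 0.646 in SCNT Low, and the AW and BF probes 0.739, 0.662 and 0.368. The seed mean varied little in SCNT High (SD 0.40) and SCNT Low (SD 0.32), against 1.03 in IVP and 1.49 in SCNT Med, and the differences in r between groups were not tested. With the session as a block, the medians in the arrays left out were 0.448 for IVP and 0.331 for SCNT Med. Between 42 and 55 of the probes so chosen were also among the 60 members.

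**Figure D3:**
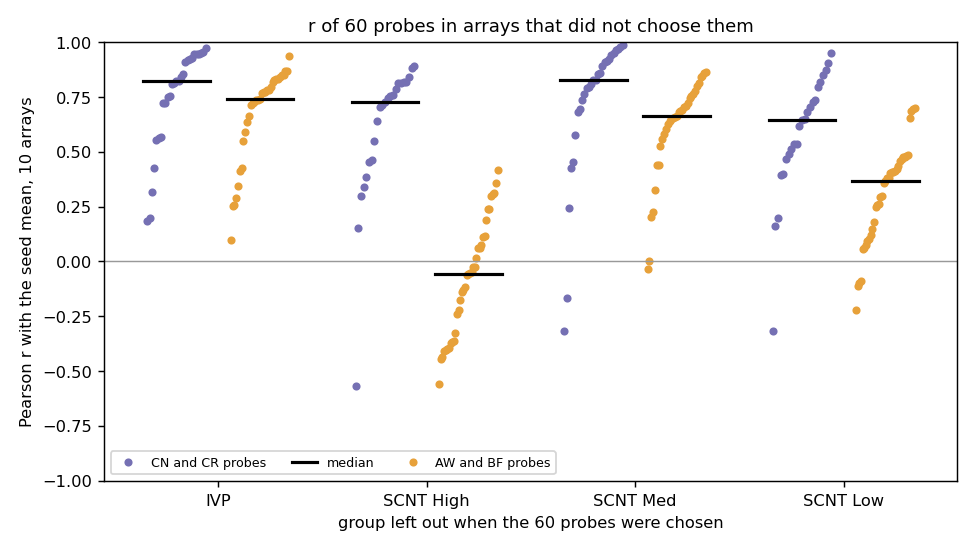
Pearson r with the seed mean (vertical axis) of 60 probes on the 10 arrays of the group that was left out when they were chosen (horizontal axis), for CN and CR probes (purple) and AW and BF probes (orange), with the median of each as a black line. The AW and BF probes centre on -0.059 in SCNT High and on 0.739 in IVP, while the CN and CR probes have medians from 0.646 to 0.827.

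The level of the seeds and of both subsets fell into unlike patterns in the 4 groups. The mean of the 4 seeds was 3.09 ± 0.40 in SCNT High, 2.98 ± 1.49 in SCNT Med, 2.48 ± 1.03 in IVP and 1.71 ± 0.32 in SCNT Low (SD, n = 10). The CN and CR mean was 2.54 ± 0.36, 2.37 ± 1.16, 2.06 ± 0.71 and 1.68 ± 0.46 in the same order of groups, with SCNT Low lowest again. The AW and BF mean was 2.23 ± 0.25, 1.85 ± 1.26, 1.60 ± 1.22 and 2.01 ± 0.44 in that order, with IVP lowest. Without its 3 arrays of session 2, IVP had the highest AW and BF mean, 2.31 ± 0.44 (n = 7). The groups overlapped in all 3 measures.

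The spread of single members was widest in the same groups. Their median SD was 0.994 in IVP and 1.36 in SCNT Med, against 0.412 and 0.494 for all probes. In SCNT High it was 0.538 against 0.430, and in SCNT Low 0.643 against 0.511. Of the 20 most variable probes of the array, 9 were members in IVP, all of them AW probes or BF probes, and 10 in SCNT Med, whereas none was a member in SCNT High or SCNT Low. AW466071 varied most of all probes in IVP (SD 3.08) and AW461876 in SCNT Med (SD 2.41). The rule favoured probes that varied where the seed mean varied most, in SCNT Med (SD 1.49) and IVP (SD 1.03). Nothing is therefore read from the wide spread of members in those groups.

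**Figure D4:**
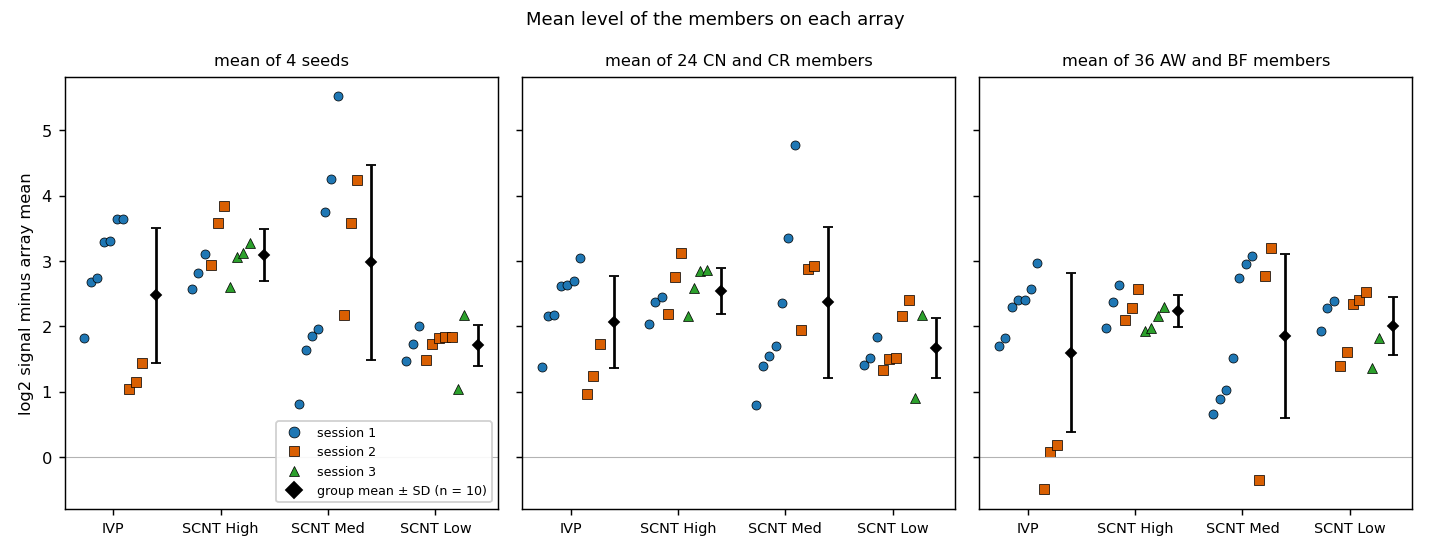
Mean level (log2 signal minus array mean) of the 4 seeds, the 24 CN and CR members and the 36 AW and BF members on each array, by group, with the quantification session as colour and shape and the group mean ± SD (n = 10) as a black diamond. In IVP the 3 session 2 arrays lie between -0.49 and 0.19 for the AW and BF members and the other 7 at 1.69 or above, and in SCNT Med both the left and the right panel part into 5 low and 5 high arrays.

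In IVP, 3 conceptuses lay apart from the rest for many members, namely BF188, BF189 and BF190, which were the 3 arrays of session 2. Their AW and BF means were -0.49, 0.19 and 0.08, while the other 7 ran from 1.69 to 2.97. AW461912, the member with the highest level, ran from 1.24 to 2.40 on these 3 arrays and from 6.51 to 7.63 on the other 7. AW464617 ran from 1.03 to 2.06 against 5.93 to 6.57, and AW466071 from -1.63 to -0.41 against 3.90 to 6.27.

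For 34 of the 64 members (53.1%) all 3 of these arrays lay below all 7 others, against 322 of 10184 probes (3.16%). These were 27 of the 36 AW and BF members, 4 of the 24 CN and CR members and 3 of the 4 seeds. The seed mean was lowest in IVP on these 3 arrays, and members were chosen to follow it. Nothing is therefore read from the share of members with this split in IVP. The same split by session was found for 0 of 64 members in SCNT Med, where 1.02% of all probes had it. It was found for 2 members (3.12%) each in SCNT High and SCNT Low, where 6.43% and 3.35% of all probes had it. Within IVP the session and these 3 conceptuses cannot be told apart. PLIN2, a lipid droplet protein of trophoblast, ran from -1.37 through 0.41 to 0.63 on the 3 arrays and from -1.34 through -0.51 to 0.14 on the others, so that 2 of the 3 lay above all 7. FN1, the matrix protein fibronectin, ran from 1.45 to 2.58 against 1.24 to 2.63, and APLP2 from -0.01 to 0.15 against -0.57 to 0.56. All 3 ranges overlapped between the sessions of IVP. The r of PLIN2, FN1 and APLP2 with the seed mean over 40 arrays was 0.089, -0.054 and -0.025, and the part of trophoblast in the low IVP arrays was not tested.

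In SCNT Med the spread did not follow the session. The seed mean ran from 0.81 to 5.52 with its widest gap, of 1.40, between 5 lower arrays (BC122, BC123, BC107, BC160 and BC30) and 5 higher ones (BC2U41, BC183, BC192, BC180 and BC158). The AW and BF mean had its widest gap, of 1.24, between the same 5 and 5 arrays. Each side held both sessions, with BC30 of session 2 among the lower and BC2U41 and BC192 of session 2 among the higher.

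A pair of SCNT Med arrays set the subsets apart. On BC30 the AW and BF mean was -0.35, lowest in its group, while the CN and CR mean was 1.95, MSH3 3.88 and C5orf13 0.84. On BC158 the CN and CR mean was 4.78, 1.43 above the next array, whereas the AW and BF mean was 2.95, within the range of the higher arrays. In SCNT High the AW and BF mean ran only from 1.93 to 2.63 and in SCNT Low from 1.37 to 2.52, with no comparable gap.

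Several measures of the arrays moved with the members. The mean of the 60 others had r = 0.918 with the local background at their own spots, and the seed mean had r = 0.781 with that at the seed spots (40 arrays, group means removed). At single spots the median r of signal with local background was 0.777 for members, 0.711 for the other probes of the brightest 20% of the array and 0.690 for all probes. The spots next to the members in their blocks had r = 0.407 with the 60 others, and the shape score had r = 0.603. The overall brightness of the array had r = -0.179, the GAPDH control spots 0.237, the actin spots 0.217 and the water spots 0.009. The control spot c83 moved the other way, with r = -0.491 for the 60 others and -0.465 for the seeds. The residual SD of the array, taken over all probes after group means were removed, had r = -0.289 with the 60 others. For the AW and BF members alone it had r = -0.441 and the array brightness r = -0.328. Without the pair of arrays farthest from the median brightness, r with brightness was 0.015 for the AW and BF members and 0.124 for the 60 others. Without the pair farthest in residual SD, the AW and BF members had r = -0.332 with the residual SD of the array. BC30 and BF188, both low for the AW and BF members, were the brightest arrays (mean log2 signal 7.88 and 7.62) and had the largest residual SD after BC250 (0.957 and 0.814). The part of background, shape, brightness, spread and neighbouring spots in the shared variation was not tested.

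Setting SCNT High against SCNT Low asks what differed between the donor lines of highest and lowest success. Of 10184 probes, 10 (0.0982%) differed at a Benjamini-Hochberg adjusted p below 0.10 in limma, and the 9 of them that were higher in SCNT High (0.0884%) were all members, including all 4 seeds. Since the seeds were taken up with this difference known, nothing is read from that count. The remaining called probe was lower in SCNT High and no member. At an unadjusted p below 0.05, 32 members were higher in SCNT High and 2 lower, where 2.61% and 1.39% of all probes were. Members were chosen to vary together, so counts of members here and in the comparisons below are not counts of independent probes. No probe of the array had groups that did not overlap (0%).

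PGAM5 was 2.83-fold higher in SCNT High (log2 difference 1.50, SE 0.24, adjusted p = 0.0148), and 8 of 10 SCNT High arrays exceeded the highest SCNT Low array. BIN3 was 1.93-fold higher (0.95, SE 0.17, adjusted p = 0.0219), with 8 of 10 arrays above. MSH3 was 3.07-fold higher (1.62, SE 0.31, adjusted p = 0.0324), with 9 of 10 arrays above. C5orf13 was 2.73-fold higher (1.45, SE 0.27, adjusted p = 0.0324), with 7 of 10 arrays above. All 4 differences were thus near or above 1 on the log2 scale, while a few arrays of the groups overlapped. In the paper, BIN3 between SCNT Low and High was among the array differences not borne out by QPCR. The same held for MSH3 between artificial insemination and SCNT High, a pair not analysed here.

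Among the other members, CR551977 ran from 3.04 through 3.83 to 4.20 in SCNT High and from 1.91 through 2.69 to 3.18 in SCNT Low, a 2.18-fold difference (adjusted p = 0.0148). CR553385 ran from 2.59 through 3.52 to 4.08 against 0.92 through 1.85 to 3.20, a 2.95-fold difference (adjusted p = 0.0195). In both probes most SCNT High arrays lay above all SCNT Low arrays, 9 of 10 and 7 of 10. CN435027 was 2.73-fold higher (adjusted p = 0.0219). CR550746 (2.36-fold) and CR553112 (1.55-fold), each with an adjusted p of 0.069, completed the 9, and CR550746 is named after its values were seen. All 24 CN and CR members were higher in SCNT High (median difference 0.85) and 24 of the 36 AW and BF members (median 0.34), where 50.6% of all probes were higher.

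The seeds were higher in SCNT High within each session, with a median difference of 1.07 in session 1, 1.61 in session 2 and 1.32 in session 3. Without the 6 arrays of session 3 no member was called (lowest adjusted p = 0.105), although 27 members had an unadjusted p below 0.05, where 1.92% of all probes did. Without the spots marked as poor, 2 members were called, and the calls of BIN3, MSH3 and C5orf13 were lost. The call of MSH3 was also lost with centring on each block of 3 by 3 spots, and those of BIN3 and MSH3 with normexp background correction. With all 4 groups in 1 model no member was called, 24 having an unadjusted p below 0.05 (3.79% of all probes).

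Between SCNT High and SCNT Med the seeds differed by less than their spread. The log2 differences were 0.19 for PGAM5 (95% interval -0.76 to 1.14), 0.08 for BIN3 (-0.55 to 0.70), -0.09 for MSH3 (-1.22 to 1.03) and 0.27 for C5orf13 (-0.71 to 1.24). The intervals were wide, reaching 1.24 for C5orf13 and -1.22 for MSH3, and do not show that the groups were alike. Of the array, 1 probe was called (0.00982%), and it was no member. A difference above 0 was found for 51 of 64 members and 53.7% of all probes.

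By limma, 4 members, all AW probes, had an unadjusted p below 0.05, all higher in SCNT High, where 3.12% of all probes did. AW464617 ran from 5.20 through 5.86 to 6.94 in SCNT High and from 2.12 through 5.56 to 6.45 in SCNT Med (difference 1.18, SE 0.47, p = 0.0192). AW461912 ran from 5.90 through 6.97 to 7.91 against 1.88 through 6.44 to 7.71 (1.35, SE 0.57, p = 0.0262). In both, the medians lay close and the SCNT Med arrays reached far lower. Neither passed the adjustment (adjusted p = 0.696). Without BC158, 13 members had an unadjusted p below 0.05, all higher in SCNT High (3.01% of all probes).

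SCNT Med against SCNT Low gave 0 called probes (0%) in limma. At an unadjusted p below 0.05, 11 members were higher in SCNT Med and 1 was lower, where 2.43% and 1.86% of all probes were. All 4 seeds were among the 11. MSH3 was higher by 1.71 (SE 0.59, p = 0.0084), BIN3 by 0.87 (SE 0.32, p = 0.0123), PGAM5 by 1.31 (SE 0.51, p = 0.0169) and C5orf13 by 1.19 (SE 0.52, p = 0.0322), each with an adjusted p of 0.997. In each seed 5 or 6 of the 10 SCNT Med arrays lay above all SCNT Low arrays. This comparison shares the SCNT Low arrays with the one that the seeds were known from. All 24 CN and CR members were higher in SCNT Med (median 0.69), but 13 of the 36 AW and BF members (median -0.13), where 47.6% of all probes were. Without BC158, 5 members were higher at an unadjusted p below 0.05 (2.22% of all probes), the difference of the CN and CR mean was 0.42 against 0.69 with it, and the median over the 64 members was 0.01 against 0.20.

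Against IVP, no probe of the array was called by limma in any of the 3 SCNT groups (0%). In SCNT High, 18 members were higher and 1 lower at an unadjusted p below 0.05, against 6.06% and 4.93% of all probes, and 60 of 64 had a difference above 0, against 52.3%. AW465459 ran from 1.91 through 2.56 to 2.98 in SCNT High and from -0.03 through 1.82 to 2.69 in IVP (difference 0.92, SE 0.26, p = 0.0019, adjusted p = 0.250). AW464722 ran from 2.06 through 2.20 to 3.64 against 0.05 through 1.35 to 2.68 (0.94, SE 0.29, p = 0.0034, adjusted p = 0.278). The IVP arrays of both probes reached lower than any SCNT High array.

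The seeds were higher in SCNT High than in IVP by 0.39 to 0.79, with adjusted p between 0.487 and 0.556. These differences followed the 3 low IVP arrays. Within session 1 the median difference of the seeds was -0.10, and within session 2 it was 2.43. Without BF188, BF189 and BF190, 2 members were higher and 7 lower at an unadjusted p below 0.05 (4.51% and 5.34% of all probes), and 38 of 64 had a difference above 0, against 54.4% of all probes. With the session as a block, 34 members were higher and 0 lower (4.59% and 3.83%).

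SCNT Med against IVP had 0 members at an unadjusted p below 0.05, where 3.29% of all probes were. The 2 members with the smallest p were CR551977, higher in SCNT Med by 0.91 (SE 0.50, p = 0.084), and CR553112, higher by 0.46 (SE 0.29, p = 0.122). CR551977 ran from 2.29 through 3.70 to 6.22 in SCNT Med and from 1.81 through 2.73 to 4.36 in IVP. CR553112 ran from 0.25 through 0.62 to 3.05 against -0.30 through 0.44 to 0.92, with 4 SCNT Med arrays above all of IVP. Of the 64 members, 57 had a difference above 0 (49.8% of all probes), but 15 did without the 3 IVP arrays of session 2 (50.9%). The median difference of the seeds was -0.21 within session 1 and 2.27 within session 2.

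Over all sessions, SCNT Low was the group in which the subsets parted in direction against IVP. Within session 1 and within session 2 their median differences did not have opposite signs, as given below. Of the 24 CN and CR members, 23 were lower in SCNT Low (median -0.36), and of the 36 AW and BF members, 29 were higher (median 0.33), where 53.1% of all probes were higher. At an unadjusted p below 0.05 in limma, 3 members were higher and 7 lower, where 1.27% and 2.11% of all probes were. MSH3 was lower by a log2 difference of -1.01 (p = 0.0133), BIN3 by -0.56 (p = 0.0314) and PGAM5 by -0.83 (p = 0.0405), while C5orf13 differed by -0.66 (p = 0.157).

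CN433325 ran from 1.06 through 1.37 to 2.44 in SCNT Low and from 1.51 through 2.30 to 3.06 in IVP (difference -0.73, SE 0.20, p = 0.0011). AW465235 ran from 1.90 through 2.27 to 3.42 against -0.45 through 2.00 to 2.63 (1.00, SE 0.34, p = 0.0078). The first was lower over most of its range, and the second had close medians with low arrays in IVP. None passed the adjustment (adjusted p = 1.00 for each).

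The directions depended on the same 3 IVP arrays. Without them, 23 members were lower in SCNT Low and 0 higher at an unadjusted p below 0.05 (3.04% and 1.57% of all probes), with a lowest adjusted p of 0.334. With the session as a block, 18 were higher and 2 lower (2.41% and 2.03%), with a lowest adjusted p of 0.244. The median difference of the seeds was -1.29 within session 1 and 0.46 within session 2. The CN and CR members likewise had a median difference of -0.89 within session 1 and 0.47 within session 2, and the AW and BF members one of 0.00 within session 1 and 1.68 within session 2.

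**Figure D5:**
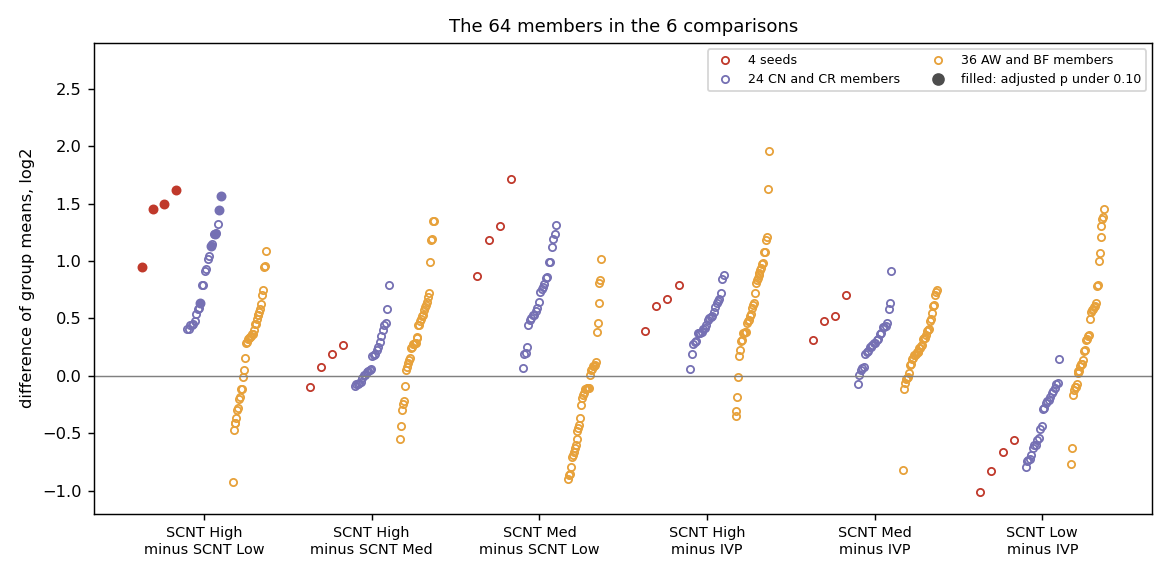
Difference of group means (vertical axis, log2) of each of the 64 members in the 6 comparisons, with the 4 seeds in red, the 24 CN and CR members in purple and the 36 AW and BF members in orange, sorted within each set. Filled points have an adjusted p below 0.10 and occur in SCNT High minus SCNT Low only, where 9 are filled, and the seeds lie above 0 in SCNT Med minus SCNT Low and below 0 in SCNT Low minus IVP.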

How the data were processed

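Amplified RNA of Day 18 extra-embryonic tissue was labelled with radioactive dATP and hybridised to nylon cDNA membranes, which the authors quantified with Imagene. The deposited spot tables hold signal and local background intensity, a shape score and a spot mark per spot, not normalized, and the authors' deposited value table holds log2 values used as an alternative only. Control and unnamed spots were left out, and log2 of the mean signal was centred on each array mean, as in the study's methods. The study's test, SMVar, was replaced by limma 3.58.1 in R 4.3.3 on the groups compared, over all 10184 probes, with Benjamini-Hochberg adjustment and a threshold of 0.10. Correlations were computed in Python 3.11.15 with numpy 2.4.6 and pandas 2.3.3.

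The seeds, members, lists and tests were chosen with earlier results of these data known. The probes named were the seeds, the 8 closest members, those at the limit of 60, the called members (at most 4 higher and 4 lower by p) or, with none called, the 2 with the smallest p, and the genes of the primer list. Array number limits the precision. In tests on simulated data with 200 changed probes of 10184, SCNT High against SCNT Low recovered 70% at a log2 change of 1 and 95% at 1.5. With 200 planted changes, the adjustment passes a looser unadjusted p than in the data, where 10 probes were called. Recovery in the data may thus be lower. The changed probes were picked from the whole array, and probes were drawn independently. Members had a higher median SD than all probes, 0.538 against 0.430 in SCNT High and 0.643 against 0.511 in SCNT Low. Recovery for the members themselves was not measured. Alternatives covered threshold, background correction, centring, quantile normalization, dim probes, session block, array weights, variance model and arrays left out. Conceptuses from artificial insemination and donor fibroblasts were not analysed here.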

Additional observations from a re-analysis of the deposited data

Results flagged for a closer look

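Of 108 groups of 10 arrays tested (27 measures of seeds, subsets and named members in 4 groups), 6 held an array that stood apart by more than Dixon's limit of 0.466 of the group's range. Chance alone flags about 1 group in 20, and none of these was tested further. In SCNT Low, MSH3 was lowest on BC256, at -0.955, with the next array at 0.698. BC271 was lowest in SCNT Low for both CR551179, at 1.06 with the next at 2.27, and CR553855, at -0.164 with the next at 0.987. AW463252 was lowest in SCNT Low on BC250, at 0.069, with the next at 0.524. AW464722 was highest in SCNT High on BC245, at 3.64, with the next at 2.46. CR553112 was highest in SCNT Med on BC158, at 3.05, with the next at 1.41.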

How the results depend on the processing

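No called difference changed sign, but differences from IVP that were not called did. Without BF188, BF189 and BF190 the AW and BF mean difference went from 0.25 to -0.46 for SCNT Med and from 0.41 to -0.30 for SCNT Low, which was 0.95 with the session as a block. Against 9 members called in SCNT High versus SCNT Low, 15 were called at an adjusted p below 0.20 and 15 with centring on each block of 3 by 3 spots (6 of the 9 among them), 19 with array weights and 18 with centring on each of 32 tiles. Fewer were called with normexp background correction (5), without spots marked as poor (2), with all 4 groups in 1 model (0) and without the arrays of session 3 (0). The cause of these shifts was not tested, although the last also leaves fewer arrays. Leaving out each array in turn gave 7 to 12 calls, and the members lost were CR550746 and CR553112. The 5 other comparisons kept 0 called members under every setting run. With the session as a block, the median r in arrays left out fell to 0.448 for IVP and 0.331 for SCNT Med. Of the 60 other members, 42 to 60 stayed, with 42 without the SCNT Med arrays, 45 with block centring and 48 without BF188, BF189 and BF190. The alternatives by tile, without session 3, without spots marked as poor, and without named arrays were chosen after seeing the data. No paired analysis was possible because nothing in the labels links conceptuses across groups. Local background tracked the members' signal, and the dimmest members lay near the water spots on some arrays, which limits their precision.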
